A study of Mus musculus with 16 samples.

Results

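The glycine cleavage system and the serine hydroxymethyltransferases are encoded in the mouse by Gldc, Amt, Gcsh, Dld, Shmt1 and Shmt2, and these 6 genes were examined in liver RNA of 4 genotypes. The members were chosen by name, with earlier results of these data in view, and the only measured value their rule used is mean signal. A gene counted as measured when the array's annotation gave it a probe set that named it alone, and the probe set with the highest mean signal stood for the gene. All 6 genes had such a probe set, out of 19938 genes with one, and each had exactly 1, so mean signal settled no choice. All 6 also lay above the filter on dim signals in 16 of 16 arrays, which 13152 genes passed in at least 4 arrays. The livers came from mice of strain 129 in groups of 4 arrays: wild type, Rassf1a-/-, Sav1+/-, and Rassf1a-/- Sav1+/-, called the double genotype here. Wild-type mice carried neither altered allele, Rassf1a-/- mice lacked both copies of Rassf1a, Sav1+/- mice lacked 1 copy of Sav1, and the double genotype combined these alleles. Rassf1a is an isoform of the tumour suppressor gene Rassf1, and Sav1 encodes a scaffold of the Hippo pathway kinases. The sources used here do not give how the alleles were made, nor the sex, age and time of killing of the mice.

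Glycine cleavage takes place in mitochondria and is carried out by 4 proteins acting in sequence. The P protein, Gldc, removes the carboxyl group of glycine and hands the remaining aminomethyl group to the lipoyl arm of the H protein, Gcsh. The T protein, Amt, releases ammonia and passes the carbon unit to tetrahydrofolate, and the L protein, Dld, reoxidises the lipoyl arm. Serine hydroxymethyltransferases interconvert serine and glycine and load or unload the same carbon unit on tetrahydrofolate, with Shmt1 in the cytosol and Shmt2 mainly in mitochondria. Liver is a main site of glycine breakdown, and inherited loss of GLDC or AMT causes nonketotic hyperglycinaemia in humans.

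The promoters of Gldc and Amt are shown because these were the members that differed between genotypes after adjustment. Each run is the 250 bases before the annotated start of the gene in the direction of transcription, from RefSeq on GRCm38.p6, and all 6 members had an entry. Capitals mark matches on either strand to GGGCGG (the GC box), CCAAT (the CCAAT box) or GGAATG (the core bound by TEAD factors, the DNA-binding partners of the Hippo pathway's effectors). No capitals overlap in these runs.
Gldc, chr19:30175442-30175691, minus strand: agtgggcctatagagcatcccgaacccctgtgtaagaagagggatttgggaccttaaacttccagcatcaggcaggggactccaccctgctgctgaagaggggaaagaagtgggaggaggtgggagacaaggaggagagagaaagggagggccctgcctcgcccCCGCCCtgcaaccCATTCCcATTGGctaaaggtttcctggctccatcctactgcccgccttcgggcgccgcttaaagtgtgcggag
Amt, chr9:108296655-108296904, plus strand: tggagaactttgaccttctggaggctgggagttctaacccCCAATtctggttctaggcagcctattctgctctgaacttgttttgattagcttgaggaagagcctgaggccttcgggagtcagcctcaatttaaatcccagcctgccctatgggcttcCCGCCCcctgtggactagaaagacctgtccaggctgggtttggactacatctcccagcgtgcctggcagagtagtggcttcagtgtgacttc
In the Gldc run, GGGCGG lay at -86 to -81, GGAATG at -73 to -68 and CCAAT at -66 to -62 from the start, all on the strand opposite to transcription. In the Amt run, CCAAT lay at -210 to -206 in the direction of transcription and GGGCGG at -92 to -87 on the opposite strand. GGAATG occurred in 1 of the 6 members' promoters and in 12.6% of the 32851 promoters of the same length. GGGCGG occurred in 4 of 6 against 32.7%, and CCAAT in 5 of 6 against 33.8%. The clock-related E-box CACGTG (6.02% of promoters) and the D-box forms TTATGTAA (0.819%) and TTACGTAA (0.113%) had no match in the 6 windows. TGATGCAA, the core of the amino acid response element (0.791%), had none either. These matches describe letters in the windows only.

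Signals are log2 values of a probe set, and a difference of 1 is a doubling. Array medians ran from 7.20 to 7.51, and the filter levels of the arrays from 7.16 to 7.44. Hepatocyte markers were strongly present, with list means of 13.23 to 13.60 over the 16 arrays for 7 genes that include Alb and Apoa1. As a check on the labels, mean Sav1 signal was 8.53 ± 0.11 for wild type, 8.61 ± 0.14 for Rassf1a-/-, 7.64 ± 0.37 for Sav1+/- and 7.65 ± 0.27 for the double genotype (SD, n = 4 each), and all 8 arrays with the lost copy lay below all 8 others. Rassf1 averaged 7.44, 7.20, 7.52 and 7.56 in the same order, and since the sources used here do not say whether its probe set reads the deleted part, it checks nothing. In 5 arrays the mean of the Y-linked genes Eif2s3y, Kdm5d and Uty exceeded Xist, an RNA that coats and silences one X chromosome of female cells: 0 of wild type, replicate 2 of Rassf1a-/-, replicates 3 and 4 of Sav1+/-, and replicates 1 and 2 of the double genotype. They are called the Y-high arrays, and results without them are given for many of the calls and directions that changed. The liver samples are bulk tissue, so fewer cells of a type and less RNA per cell cannot be told apart.

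Gldc, the P protein that decarboxylates glycine, was higher in livers without Rassf1a. Wild-type arrays read 11.16, 11.62, 10.97 and 10.85 (log2 signal), and Sav1+/- arrays 11.05, 11.27, 11.25 and 11.15. Rassf1a-/- arrays read 11.97, 11.95, 11.86 and 12.04, and arrays of the double genotype 11.77, 12.24, 12.06 and 11.93. All 8 arrays without Rassf1a lay above all 8 arrays with it, and wild-type replicate 2 came nearest to the upper set. The Rassf1a-/- arrays spanned a narrow range (mean 11.95 ± 0.08, SD, n = 4) and the wild-type arrays a wide one (11.15 ± 0.34). Averaged over both Sav1 states, Gldc rose by 0.81 on the log2 scale with loss of Rassf1a (SE 0.11, 1.75-fold, limma adjusted p = 0.000406). In this comparison 2 of the 6 members, Gldc and Amt, were called at an adjusted p under 0.05 and both were higher, where 2.23% of the 13152 genes were called in either direction and 1.76% as higher. The arrays of both sides did not overlap for the same pair of members, against 0.601% of genes that were higher without overlap.

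Within single comparisons the size of the Gldc difference was similar. Against wild type, Gldc rose by 0.80 in Rassf1a-/- livers (SE 0.15, 1.74-fold, limma adjusted p = 0.0174) and by 0.85 in the double genotype (SE 0.15, 1.80-fold, adjusted p = 0.0128). Against Sav1+/- livers, the double genotype was higher by 0.82 (SE 0.15, 1.76-fold, adjusted p = 0.0189). The interaction, the change in the Rassf1a difference with 1 copy of Sav1 lost, was 0.016 (95% interval -0.45 to 0.48, adjusted p = 0.989). Y-linked signal did not move with Gldc: within genotypes, Y-high arrays minus the others differed by -0.011 in Rassf1a-/-, 0.040 in Sav1+/- and 0.011 in the double genotype.

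Without the 5 Y-high arrays the averaged Gldc difference was still called, and those of the single comparisons kept their size but not their calls (0.80, adjusted p = 0.103, 0.84, adjusted p = 0.336, and 0.83, adjusted p = 0.298, in the order above). The call in Rassf1a-/- against wild type also ended without wild-type replicate 1, 3 or 4 or Rassf1a-/- replicate 1, 2 or 4, at adjusted p of 0.0545 to 0.0895. The call in the double genotype against wild type ended without wild-type replicate 3 or 4 or double-genotype replicate 2, at 0.0530 to 0.0707. That against Sav1+/- ended without Sav1+/- replicate 1 or double-genotype replicate 2 or 3, at 0.0509 to 0.0846.

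Amt, the T protein that transfers the carbon unit to tetrahydrofolate, followed the same division of genotypes. Wild-type arrays read 10.23, 10.14, 9.84 and 10.02 (log2 signal), and Sav1+/- arrays 9.90, 10.04, 9.85 and 10.06. Rassf1a-/- arrays read 11.00, 10.69, 10.52 and 10.85, and arrays of the double genotype 10.34, 10.59, 10.71 and 10.73. All 8 arrays without Rassf1a were again above all 8 with it, and the lowest of them was replicate 1 of the double genotype. Averaged over the Sav1 states, Amt rose by 0.67 (SE 0.10, 1.59-fold, limma adjusted p = 0.000843). Against wild type it rose by 0.70 in Rassf1a-/- livers (SE 0.14, 1.63-fold, adjusted p = 0.0186). It was 0.53 above wild type in the double genotype without passing (SE 0.14, adjusted p = 0.0819). The arrays of Gldc and Amt did not overlap in any of these comparisons, where 6.55%, 6.28% and 5.03% of genes were higher without overlap in Rassf1a-/- and in the double genotype against wild type and in the double genotype against Sav1+/-. Against Sav1+/- livers the double genotype was higher by 0.63 (SE 0.14, 1.55-fold, adjusted p = 0.0401). The interaction for Amt was -0.074 (95% interval -0.48 to 0.34, adjusted p = 0.937). No member was called in the interaction by limma, 0 of 6 at an unadjusted p under 0.05, and neither was any other gene (0%, with 1236 at an unadjusted p under 0.05).

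Gldc and Amt were the 2 of 6 members called in Rassf1a-/- livers against wild type, where 0.7% of all genes were called and 0.433% as higher. The same pair was called in the double genotype against Sav1+/-, where 0.836% of genes were called. Gldc alone was called in the double genotype against wild type, where the share of genes was 0.821%. These comparisons share arrays, so their calls are not independent of one another. For Amt the call in Rassf1a-/- livers ended without wild-type replicate 3 or 4, without Rassf1a-/- replicate 1 or 4, at adjusted p of 0.0694 to 0.0942, and without the 5 Y-high arrays (0.73, adjusted p = 0.0904). The call against Sav1+/- was near the threshold and held in 4 of 16 fits lacking 1 array, those without wild-type replicate 3, Rassf1a-/- replicate 3, Sav1+/- replicate 2 or double-genotype replicate 1. In the other fits its adjusted p was 0.0502 to 0.122.

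**Figure D1:**
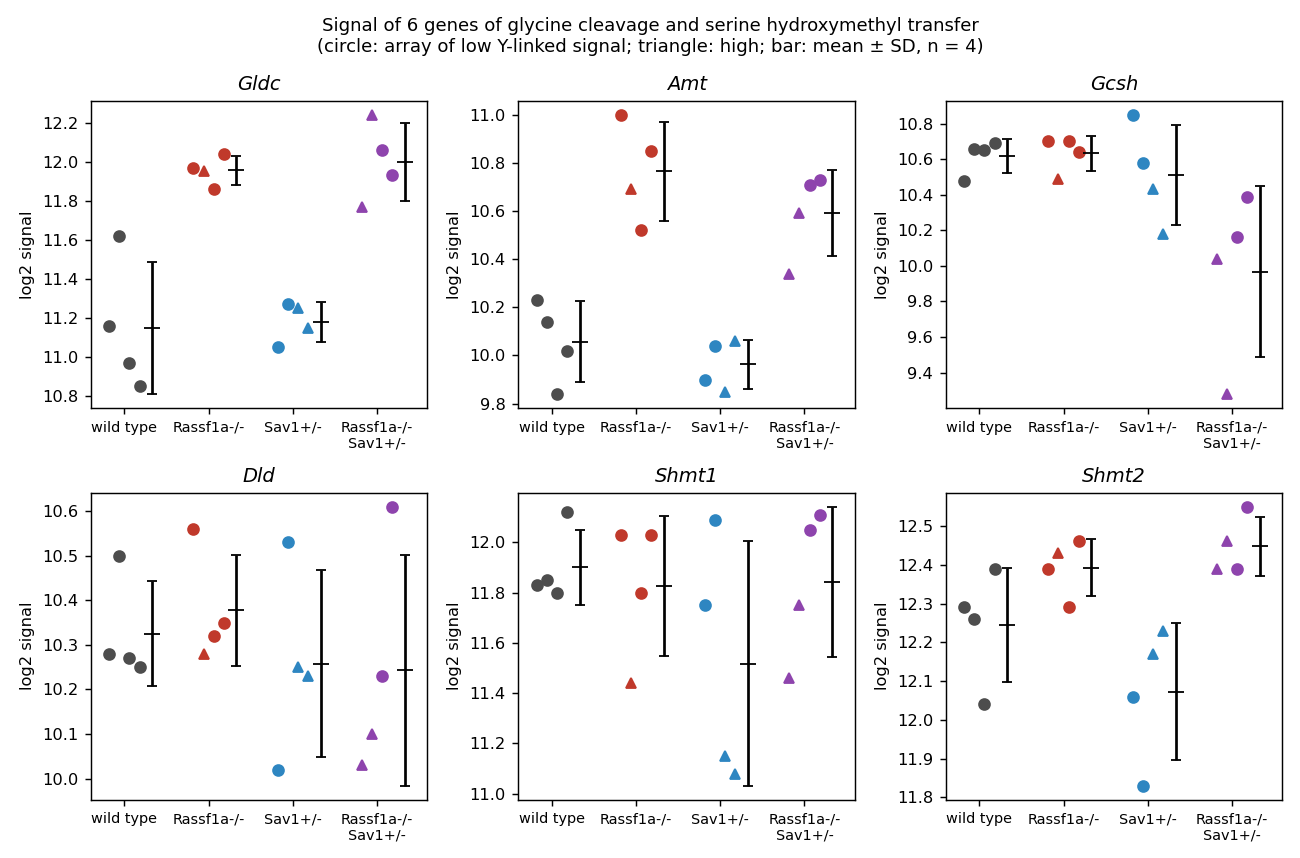
Log2 signal of each of the 6 genes in every array by genotype, with 1 point per array, triangles for the 5 Y-high arrays, and bars for the mean and SD of 4 arrays. Gldc and Amt separate the 8 arrays without Rassf1a from the 8 with it, Gcsh is lowest in the double genotype, and the triangles of Shmt1 sit at or below 11.75.

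Gcsh, the small lipoyl-carrying H protein, did not follow Gldc and Amt. Wild-type arrays read 10.48, 10.66, 10.65 and 10.69 (log2 signal), and Rassf1a-/- arrays 10.70, 10.49, 10.70 and 10.64. Sav1+/- arrays read 10.85, 10.58, 10.43 and 10.18, and arrays of the double genotype 10.04, 9.28, 10.16 and 10.39. The double genotype had the lowest arrays, all 4 of them below every wild-type and every Rassf1a-/- array but overlapping with Sav1+/-, and its replicate 2 stood lowest of all. The difference from Rassf1a-/- was -0.66 (SE 0.20, limma adjusted p = 0.135) and that from wild type -0.65 (SE 0.20, adjusted p = 0.142), and neither passed. Across all genes 5.96% and 4.49% lay lower without overlap in these comparisons. Without double-genotype replicate 2 the differences were -0.44 (adjusted p = 0.440) and -0.42 (adjusted p = 0.436). Against Sav1+/- the difference was -0.55 (adjusted p = 0.193).

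No member was called in the double genotype against Rassf1a-/- (1 of 6 at an unadjusted p under 0.05, which was Gcsh), where 0.0076% of genes were called. Averaged over the Rassf1a states, the Sav1 difference of Gcsh was -0.39 (SE 0.14, adjusted p = 0.206), with 0 of 6 members called by limma, 1 at an unadjusted p under 0.05, and 0.0228% of genes called. With limma's array weights Gcsh passed in this comparison (-0.46, adjusted p = 0.0233), against wild type (-0.67, adjusted p = 0.0157) and against Rassf1a-/- (-0.71, adjusted p = 0.00965). That setting raised the number of genes called in the averaged Sav1 comparison from 3 to 1517. The interaction of Gcsh was -0.56 (95% interval -1.14 to 0.024, adjusted p = 0.551). Without the Y-high arrays the averaged Sav1 difference of Gcsh was -0.15 (limma adjusted p = 0.9996). The double genotype then differed by -0.34 from wild type (adjusted p = 0.998) and by -0.40 from Rassf1a-/- (adjusted p = 0.9999). Mean Gcsh in arrays that were not Y-high was 10.62 in wild type and 10.68 in Rassf1a-/-. It was 10.72 in Sav1+/- and 10.28 in the double genotype.

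Y-linked signal, macrophage markers and other lists were recorded beside Gcsh. Within genotypes, Y-high arrays read 0.19, 0.41 and 0.62 lower than the others in Rassf1a-/-, Sav1+/- and the double genotype, with a slope on the Y-linked mean of -0.076 (SE 0.023, limma adjusted p = 0.0740). Kupffer cell markers, 7 of 7 kept, had a median difference of 0.39 in the averaged Sav1 comparison, 7 of 7 positive and 0 called (2 at an unadjusted p under 0.05). In the double genotype against Rassf1a-/-, where Gcsh differed by -0.66, their median was 0.56, again with 7 of 7 positive, 0 called by limma and 2 at an unadjusted p under 0.05. In Sav1+/- against wild type their median was 0.35, with 7 of 7 positive, and Gcsh differed by -0.11. In the double genotype the median was 0.46 against wild type (6 of 7 positive, Gcsh -0.65) and 0.075 against Sav1+/- (4 of 7, Gcsh -0.55). No marker was called by limma in these comparisons, with 0 at an unadjusted p under 0.05. The summed level of these markers, given as the list mean, ran from 9.35 to 10.40 in wild type, 9.10 to 9.97 in Rassf1a-/-, 9.54 to 10.94 in Sav1+/- and 9.75 to 10.64 in the double genotype. Other lists also leaned to one side, with 0 called by limma. In the averaged Sav1 comparison 8 of 8 pericentral hepatocyte markers were positive (median 0.11, 2 at an unadjusted p under 0.05). Of 12 genes that supply the lipoyl arm, 1 was positive (median -0.22, 5 at that p). In the double genotype against Rassf1a-/- these were 8 of 8 (median 0.30, 4 at that p) and 1 of 12 (median -0.23, 4 at that p). The part of these lists in the Gcsh values was not tested.

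Dld, the L protein, is shared with the pyruvate, 2-oxoglutarate and branched-chain 2-oxoacid dehydrogenase complexes, and it showed no difference that passed. Wild-type arrays read 10.28, 10.50, 10.27 and 10.25 (log2 signal), Rassf1a-/- arrays 10.56, 10.28, 10.32 and 10.35, and Sav1+/- arrays 10.02, 10.53, 10.25 and 10.23. Arrays of the double genotype read 10.03, 10.10, 10.23 and 10.61. The 4 genotypes overlapped throughout, with means of 10.32 ± 0.12, 10.38 ± 0.12, 10.26 ± 0.21 and 10.24 ± 0.26 (SD, n = 4 each). The averaged Rassf1a difference was 0.020 (95% interval -0.20 to 0.24, adjusted p = 0.949), an interval that does not reach the differences of Gldc and Amt.

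Shmt2, the mitochondrial hydroxymethyltransferase, was slightly higher in the arrays without Rassf1a but did not pass. Wild-type arrays read 12.29, 12.26, 12.04 and 12.39 (log2 signal), and Sav1+/- arrays 12.06, 11.83, 12.17 and 12.23. Rassf1a-/- arrays read 12.39, 12.43, 12.29 and 12.46, and arrays of the double genotype 12.39, 12.46, 12.39 and 12.55. The double genotype lay above all Sav1+/- arrays and, at its lowest, just above the highest wild-type array (12.390 against 12.388). Across all genes 5.03% and 6.28% were higher without overlap in these comparisons. Rassf1a-/- overlapped with wild type. The averaged Rassf1a difference was 0.26 (SE 0.08, 1.20-fold, limma adjusted p = 0.116, 95% interval 0.08 to 0.44). The single differences were 0.15 for Rassf1a-/- and 0.21 for the double genotype against wild type, and 0.38 for the double genotype against Sav1+/- (adjusted p = 0.673, 0.482 and 0.138).

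Shmt1, the cytosolic hydroxymethyltransferase, varied with Y-linked signal and showed no genotype difference that passed. Wild-type arrays read 11.83, 11.85, 11.80 and 12.12 (log2 signal), and Rassf1a-/- arrays 12.03, 11.44, 11.80 and 12.03. Sav1+/- arrays read 11.75, 12.09, 11.15 and 11.08, and arrays of the double genotype 11.46, 11.75, 12.05 and 12.11. The 5 Y-high arrays lay at 11.08 to 11.75 and the other 11 at 11.75 to 12.12, nearly touching at 11.751 and 11.754. How many of all genes divide these arrays in the same way was not counted. Within genotypes the high arrays were lower by 0.51 in Rassf1a-/- (1 array against 3), by 0.81 in Sav1+/- and by 0.48 in the double genotype (2 against 2 in each). With genotype in the fit, Shmt1 fell by 0.10 per log2 unit of the Y-linked mean (SE 0.02, limma adjusted p = 0.00408), a fit in which 4.71% of genes were called and 3.02% as lower. It was the 1 of 6 members called in that fit.

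The difference of Shmt1 between Sav1+/- and wild type, which has no Y-high array, was -0.38 (SE 0.22, adjusted p = 0.648). No member was called there by limma, 0 of 6 at an unadjusted p under 0.05, and 0% of genes were called (1204 at an unadjusted p under 0.05). Without the Y-high arrays the Shmt1 difference was 0.025. The averaged Sav1 difference of Shmt1 was -0.18 (adjusted p = 0.573), and it was 0.050 after adding the Y-linked mean to the fit and 0.077 without those arrays. With array weights it was -0.41 (adjusted p = 0.0470).

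**Figure D2:**
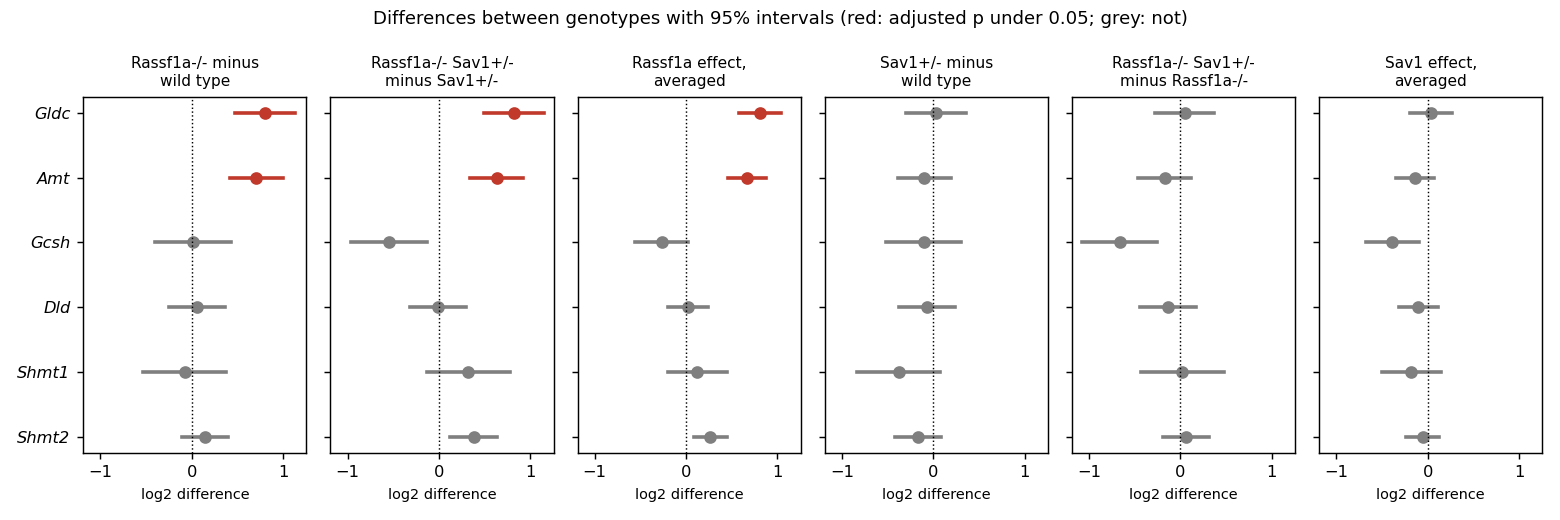
Log2 differences of the 6 genes in 6 comparisons, with 95% intervals from limma, in red where the adjusted p was under 0.05. Gldc and Amt lie between 0.63 and 0.82 in the 3 Rassf1a comparisons, and no gene is red in the Sav1 comparisons.

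Variation within genotypes was compared between the 6 members. Each gene's genotype mean was taken off before arrays were compared, and 15 pairs were tested by permutation within genotypes. Gldc and Amt had a Pearson r of 0.45 and a Spearman rho of 0.41 over 16 arrays (permutation p = 0.128 and 0.155, adjusted over the 15 pairs 0.384 and 0.456), and an r of 0.53 without the 2 arrays farthest from the median. The highest r was 0.57, for Amt and Dld (rho 0.61, permutation p = 0.0267 and 0.0233, adjusted 0.384 and 0.175, r = 0.52 without the 2 farthest arrays). The highest rho was 0.74, for Gcsh and Shmt1, which both read lower in Y-high arrays (r = 0.51, permutation p = 0.109 and 0.00530, adjusted 0.384 and 0.0795, r = 0.55 without the 2 farthest arrays). No pair passed after adjustment, which with 16 arrays does not show that the members vary apart.

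Among the 13152 genes, those most like each member were found by the same correlation of within-genotype deviations over 16 arrays, given as a description with no test, since the arrays share sources of variation such as sex. The 3 most like Gldc were Fpgs (r = 0.91), which adds the glutamate chain that keeps folates in the cell, Arntl (0.85), which encodes the clock activator BMAL1, and Ddc (0.76), the aromatic amino acid decarboxylase. Their r over the 11 arrays that were not Y-high were 0.94, 0.85 and 0.82. Arntl lay above its array's filter level in 2 of the 8 arrays with Rassf1a and in 8 of 8 without it, so it passed the filter through the arrays where it is high. Over the 8 arrays without Rassf1a the r of Arntl with Gldc was 0.90. Wild-type replicate 2, the highest wild-type array for Gldc, was also the highest wild-type array for these genes, and without the 2 arrays farthest from the median the r were 0.82, 0.74 and 0.66. The 3 most like Amt were Acads, the short-chain acyl-CoA dehydrogenase (0.92), 1110051M20Rik (0.90) and Acsf3, a mitochondrial malonyl-CoA synthetase (0.89). Without the 2 farthest arrays the r were 0.91, 0.87 and 0.90. Genotype means of 1110051M20Rik were 6.95 to 7.24, at or below the filter levels of 7.16 to 7.44, so its signal was dim throughout. Acads and Acsf3 differed by 0.10 and 0.11 in the averaged Rassf1a comparison (limma adjusted p = 0.607 and 0.692). Acads differed by -0.37 in Sav1+/- against wild type and by 0.27 in the double genotype against Sav1+/- (adjusted p = 0.304 and 0.293).

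The other members had other neighbours. Gcsh was most like Rassf7 (0.90), Cox17, a copper chaperone of cytochrome oxidase (0.89), and Pcp4l1 (0.88). Cox17 was dim, with genotype means from 6.58 in the double genotype to 7.58 in Rassf1a-/-, around the filter levels. Dld was most like 2210016L21Rik (0.92), Rhno1 (0.89) and Rab11fip3 (0.89). Shmt1 was most like As3mt, the arsenic methyltransferase (0.98), Pter (0.97) and Lratd2 (0.96), with r of 0.94, 0.95 and 0.94 over the 11 arrays that were not Y-high. Shmt2 was most like Gm826 (0.89), Atpaf2, an assembly factor of ATP synthase (0.89), and Letmd1 (0.88). Without the 2 arrays farthest from the member's median, the r in the order above were 0.88, 0.82 and 0.82 for Gcsh. For Dld they were 0.88, 0.73 and 0.78, for Shmt1 0.96, 0.96 and 0.94, and for Shmt2 0.74, 0.87 and 0.79.

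**Figure D3:**
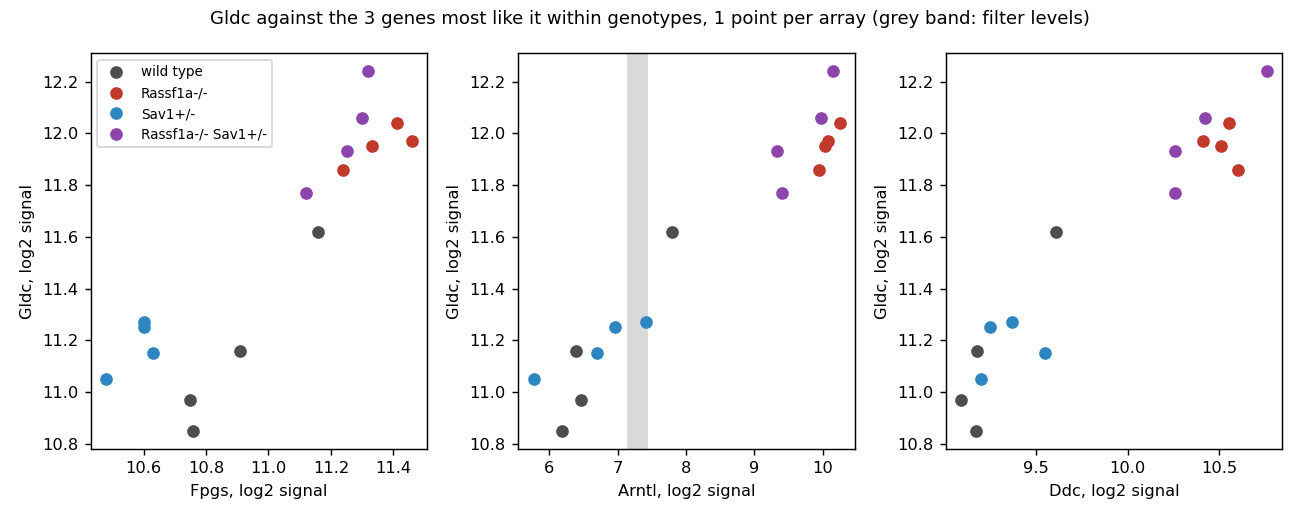
Log2 signal of Gldc against Fpgs, Arntl and Ddc, 1 point per array in the colour of its genotype, with the grey band marking the filter levels of 7.16 to 7.44. Wild-type replicate 2, at 11.62 for Gldc, lies nearest to the arrays without Rassf1a.

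Fpgs, Arntl and Ddc also differed with Rassf1a. Mean Ddc signal was 9.26 ± 0.23 for wild type, 10.52 ± 0.08 for Rassf1a-/-, 9.35 ± 0.16 for Sav1+/- and 10.43 ± 0.23 for the double genotype (log2 signal, SD, n = 4 each), and rose by 1.17 in the averaged comparison (SE 0.10, limma adjusted p = 8.53e-06). Arntl averaged 6.71 in wild type and in Sav1+/-, where 1 of 4 arrays in each was above its filter level, against 10.08 and 9.72 without Rassf1a. With dim arrays set to the filter level, a rule chosen after seeing the data, it was at least 5.57-fold higher without Rassf1a. The limma fit on the values as read gave 3.19 (adjusted p = 1.6e-06), which takes signals below the filter level as measured and is no bound. Of 13 clock genes kept, 3 rose and 7 fell in the averaged comparison, where 2.23% of all genes were called. Among those that fell, Per1, Per2, Per3 and Ciart were above the filter level in 7, 6, 4 and 1 of the 8 arrays without Rassf1a. With dim arrays set to the filter level, their differences were -1.63, -1.68, -2.09 and -2.57. Dbp, Tef and Nr1d2 were above the filter level in 8 of 8 arrays with Rassf1a and 8 of 8 without it. Their differences were -2.67, -1.44 and -0.67. The clock list mean ran from 9.63 to 9.92 in wild type, 8.80 to 9.14 in Rassf1a-/-, 9.38 to 9.77 in Sav1+/- and 8.70 to 9.62 in the double genotype, so the double genotype overlapped Sav1+/- for this list. The part of the clock genes in the Gldc and Amt values was not tested, and the sources used here give no sampling time.

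The folate genes that receive the carbon unit showed 1 call. Of 22 folate genes listed, 19 had a probe set and 17 were kept, and 1 rose in the averaged Rassf1a comparison, with a median difference of 0.039 against 0.026 for all genes. That gene was Fpgs, with a mean of 10.89 ± 0.19 for wild type, 11.36 ± 0.10 for Rassf1a-/-, 10.58 ± 0.07 for Sav1+/- and 11.25 ± 0.09 for the double genotype (log2 signal, SD, n = 4 each). With wild type as the reference, Fpgs passed in neither genotype lacking Rassf1a. Rassf1a-/- livers were 0.46 higher with no overlap (limma adjusted p = 0.0926). Double-genotype livers were 0.35 higher, and their arrays overlapped wild type (adjusted p = 0.190). All Sav1+/- arrays lay below wild type (-0.32, adjusted p = 0.392), so comparisons with Sav1+/- start from a lower level. Fpgs rose by 0.57 in the averaged comparison (SE 0.08, 1.48-fold, limma adjusted p = 0.000922) and by 0.67 in the double genotype against Sav1+/- (SE 0.12, adjusted p = 0.0119). Without the 5 Y-high arrays these were 0.61 (adjusted p = 0.0593) and 0.74 (adjusted p = 0.258), and the latter call also ended without double-genotype replicate 2 (0.65, adjusted p = 0.0580) and with only the compared genotypes fitted (0.67, adjusted p = 0.192). The median of the 6 members themselves was 0.19, with 5 of 6 positive.

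Genes that make or use glycine and serine were mostly not called. Of 19 genes of glycine supply and use, 17 were kept, 1 fell and 0 rose, with a median of 0.10. The one that fell was Alas1, which condenses glycine with succinyl-CoA in the first step of haem synthesis. The Alas1 means were 12.77 ± 0.29 for wild type, 10.66 ± 0.97 for Rassf1a-/-, 12.23 ± 0.34 for Sav1+/- and 11.81 ± 0.37 for the double genotype (log2 signal, SD, n = 4 each). It fell by 1.27 in the averaged comparison (SE 0.25, 2.41-fold, limma adjusted p = 0.0107) and by 2.11 in Rassf1a-/- livers against wild type (SE 0.35, adjusted p = 0.00560). In the double genotype against Sav1+/- the difference was -0.42 without passing (SE 0.35, adjusted p = 0.621), and the interaction was 1.69 (SE 0.50, adjusted p = 0.343). Of 7 genes of serine synthesis and breakdown, 4 were kept and 0 were called by limma (1 at an unadjusted p under 0.05). The smallest p in that list belonged to Srr, serine racemase (0.18, adjusted p = 0.313), and Agxt, the peroxisomal aminotransferase that turns glyoxylate into glycine (0.21, adjusted p = 0.452). Agxt stands in both lists.

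Methionine cycle and transsulfuration genes, which take up methyl groups downstream of folate and draw on serine, had 10 of 11 kept and 0 called by limma in the averaged Rassf1a comparison (3 at an unadjusted p under 0.05), with a median of 0.088. The smallest p were those of Bhmt, which remethylates homocysteine from betaine (0.51, adjusted p = 0.110), and Cbs, which joins homocysteine to serine (0.28, adjusted p = 0.231). Lipoylation genes, which supply the lipoyl arm that Gcsh carries, had 12 of 12 kept and 0 called (3 at an unadjusted p under 0.05), with a median of 0.024. Mecr (0.31, adjusted p = 0.103) and Oxsm (0.34, adjusted p = 0.147), both of mitochondrial fatty acid synthesis, had the smallest p. Of these 12 genes Glrx5, a carrier of iron-sulphur clusters that lipoyl synthase needs, fell by 0.55 in the double genotype against wild type (SE 0.12, limma adjusted p = 0.0321). That call ended in 8 of 16 fits, those without any 1 wild-type array, without Rassf1a-/- replicate 4 or without double-genotype replicate 1, 2 or 3 (adjusted p of 0.0508 to 0.103), and it held in 6 of 11 other settings. Without the Y-high arrays the Glrx5 difference was -0.63 and not called (adjusted p = 0.350). Of the 10 other subunits of complexes that use Dld, all 10 were kept and 0 were called by limma (2 at an unadjusted p under 0.05), with Dbt (0.27, adjusted p = 0.141) and Bckdhb (0.21, adjusted p = 0.181) of the branched-chain complex nearest to passing.

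**Figure D4:**
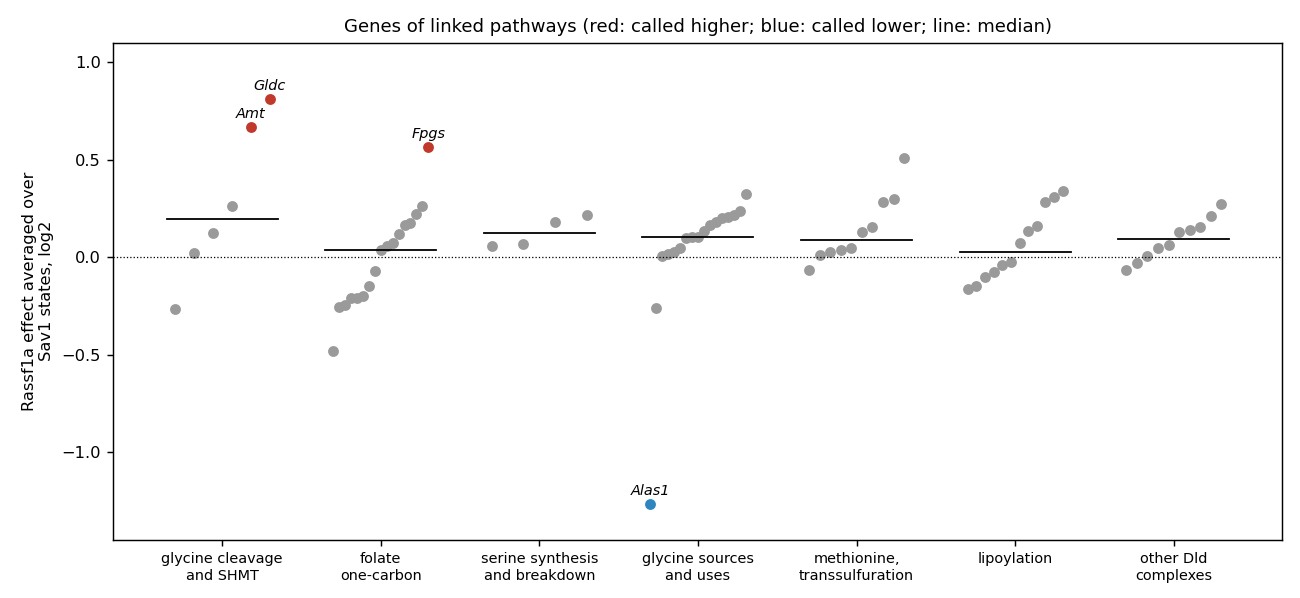
Averaged Rassf1a difference (log2) of each kept gene of the glycine cleavage and hydroxymethyltransferase set and of 6 linked lists, 1 point per gene, with a line at the median of each list. Gldc, Amt and Fpgs are called higher, Alas1 is called lower at -1.27, and the other points are grey.

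Amt lies on chromosome 9, the chromosome that also carries Rassf1. In the RefSeq order of GRCm38.p6, 31 protein-coding genes stand between them and 23 of these were kept. The median difference of the 23 was -0.011 in the averaged Rassf1a comparison and -0.24 in Rassf1a-/- against wild type. In the averaged comparison 1 of the 23 was called, against 2.23% of all genes: Nicn1, the immediate neighbour of Amt, which rose by 0.41 (SE 0.09, 1.33-fold, limma adjusted p = 0.0194). The Nicn1 means were 10.28 ± 0.14 for wild type, 10.65 ± 0.15 for Rassf1a-/-, 10.04 ± 0.06 for Sav1+/- and 10.48 ± 0.18 for the double genotype (log2 signal, SD, n = 4 each). Its call ended without wild-type replicate 3 (0.38, adjusted p = 0.0543), without Rassf1a-/- replicate 4 (0.38, adjusted p = 0.0554) and without the Y-high arrays (0.43, adjusted p = 0.178). In the averaged comparison the Nicn1 arrays of both sides overlapped. Nicn1 was not called against wild type in Rassf1a-/- (0.37, limma adjusted p = 0.267) or in the double genotype (0.20, adjusted p = 0.526). Nor was it called in the double genotype against Sav1+/- (0.45, adjusted p = 0.105). The part of the shared chromosome in the Amt difference was not tested. Gldc lies on chromosome 19.

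Markers of liver zones and of other cells were set beside the Rassf1a differences. Glycine cleavage genes are known to differ along the liver lobule. Of 7 periportal markers 4 had a probe set, and Hal, which opens histidine breakdown, rose by 0.48 in the averaged comparison (SE 0.11, limma adjusted p = 0.0248), the 1 of 4 called (3 at an unadjusted p under 0.05). Pck1, the gluconeogenic carboxykinase, lay the other way at -0.40 without passing (adjusted p = 0.181). The Hal call ended without the Y-high arrays (0.45, adjusted p = 0.205) and without wild-type replicate 3, Rassf1a-/- replicate 1, 2 or 4, Sav1+/- replicate 3 or double-genotype replicate 2 or 3 (adjusted p of 0.0529 to 0.0687), and it held in 8 of 10 other settings. The periportal list mean ran from 12.37 to 12.74 in wild type, 12.47 to 12.72 in Rassf1a-/-, 12.24 to 12.66 in Sav1+/- and 12.60 to 12.81 in the double genotype. Of 8 pericentral markers 0 were called in the averaged comparison by limma (2 at an unadjusted p under 0.05), and Slc1a2, a glutamate transporter, fell by 0.90 in Rassf1a-/- livers against wild type (SE 0.19, adjusted p = 0.0352). In the double genotype against Sav1+/- its difference was -0.078 (adjusted p = 0.896), with an interaction of 0.83 (adjusted p = 0.388). In the averaged comparison 2 of the 8 pericentral differences were positive, among them Axin2, a Wnt target, at 0.52 (adjusted p = 0.120). The Slc1a2 call held in 8 of 16 fits without 1 array and in 8 of 11 other settings. It ended without wild-type replicate 1, 3 or 4, Rassf1a-/- replicate 2, 3 or 4, Sav1+/- replicate 3 or double-genotype replicate 1 (0.0511 to 0.150), and without the Y-high arrays (-0.84, adjusted p = 0.214). Pericentral list means were 11.21 to 11.48, 10.97 to 11.33, 11.09 to 11.68 and 11.31 to 11.66 in the same order.

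Lists for other liver cells had no called gene in the averaged Rassf1a comparison. Endothelial markers (5 of 5 kept) had list means of 9.41 to 9.78 in wild type, 9.45 to 10.16 in Rassf1a-/-, 9.41 to 9.94 in Sav1+/- and 9.73 to 10.13 in the double genotype, and Lyve1 among them was 1.04 higher without passing (adjusted p = 0.0562). Stellate markers (5 of 5 kept) had 10.10 to 10.45, 10.11 to 10.81, 10.02 to 10.41 and 9.93 to 10.55. Cholangiocyte markers, 1 of 4 kept, had 6.76 to 7.13, 6.97 to 7.40, 6.72 to 6.96 and 6.79 to 7.61. Markers of lymphocytes and neutrophils, 2 of 5 kept, had 6.51 to 6.91, 6.24 to 8.14, 6.43 to 7.74 and 6.50 to 7.48. All these ranges overlap between wild type and the genotypes without Rassf1a. At an unadjusted p under 0.05 the count was 1 of 5 endothelial genes and 0 in the Kupffer, stellate, cholangiocyte, lymphocyte and hepatocyte lists. The part of zonation and of other cells in the Gldc and Amt differences was not tested.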

How the data were processed

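Total liver RNA was measured on Affymetrix whole-transcript arrays, 16 in all. The authors deposited log2 signals per probe set. The submitters' processing notes name Affymetrix Expression Console, and the sources used here do not give its version, summarisation or normalization. Of 35556 probe sets, 21789 named 1 gene in the platform annotation and 21698 of these matched RefSeq by gene ID. Probe sets with several genes (1621) or none (12146) were left out.

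A probe set was kept at or above its array's 40th percentile, taken over probe sets with 1 gene, in at least 4 arrays, and the highest-mean probe set stood for a gene. All 13152 genes were fitted with limma 3.58.1 (R 4.3.3, data.table in version 1.17.8), giving each genotype its mean (12 residual degrees of freedom), in 8 two-sided comparisons, each adjusted by Benjamini-Hochberg over all genes. Errors are SE for differences and SD for means. The code was checked on simulated data. Replicates are numbered in deposit order, and the labels do not say that they are separate animals, so the p-values rest on a spread that may be technical. The number of arrays limits precision.

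The 6 members and all lists were chosen with earlier results of these data known. Named besides them are called list genes, at most 6 per list, and the 3 genes most like each member. Where a list of linked genes had no call, the 2 with the smallest p are named. Lyve1, Nicn1, Pck1, Axin2, Tef and Nr1d2 fall outside these rules and were named with their values seen. Alternatives were other filters, probe set averaging, quantile normalization, median centring, fits of the compared genotypes only, a trended robust variance, array weights, the mean of Y-linked genes in the fit, and leaving out arrays.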

Additional observations from a re-analysis of the deposited data

Results flagged for a closer look

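In the wild-type group Dld read 10.5 in replicate 2, against 10.25 to 10.28 in the other 3 arrays, a gap large for the range of the group by Dixon's criterion. Of 24 groups examined, 6 genes in 4 genotypes, this was the 1 with an array apart, and chance gives about 1 in 20. That array was also the highest of wild type for Gldc, at 11.62.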

How the results depend on the processing

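No paired analysis was possible because replicates carry no numbers in the labels. The averaged Rassf1a calls of Gldc and Amt held under all 10 other settings that apply and in all 16 fits without 1 array. A set of 32 differences, listed by hand, was followed over the settings, and no called one among them changed sign. In the double genotype against Sav1+/- (2 members called), 1 was called with no filter and 1, Gldc, with the filter level taken over all probe sets, a setting chosen after seeing the data (Amt 0.63, adjusted p = 0.0517). There 0 were called with median centring, 0 with only the compared genotypes fitted, 0 with array weights and 0 without the Y-high arrays. In the double genotype against wild type (1 called), the counts were 2 with the stricter filter at the 60th percentile, 0 with only the compared genotypes, 3 with array weights (Amt, Gcsh, Gldc) and 0 without the Y-high arrays. In Rassf1a-/- against wild type (2 called), 0 were called without those arrays. With array weights 1 member was called in the double genotype against Rassf1a-/- and 2 in the averaged Sav1 comparison. Leaving out 1 array gave 0 to 2, 0 to 1 and 0 to 2 members in the first 3 of these comparisons. The cause of these changes was not tested.

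Of the 32 differences in that set, 5 changed sign in some setting, none of them called as reported. Uncalled differences of genes other than the 6 members were not in the set. The difference of Gcsh between Sav1+/- and wild type was not in it either. The averaged Rassf1a difference of Dld was -0.0071 with quantile normalization and -0.0027 with array weights, and -0.042 to 0.065 without 1 array. The interaction of Gldc was -0.066 with median centring and -0.081 with array weights, and -0.14 to 0.12 without 1 array. That of Amt was 0.016 without the Y-high arrays, and -0.16 to 0.010 without 1 array. For Shmt1, the averaged Sav1 difference was 0.050 with Y-linked signal in the fit and 0.077 without the Y-high arrays, and it was called with array weights (-0.41, adjusted p = 0.0470). Its Sav1+/- difference from wild type was 0.025 without the Y-high arrays. The slope of Shmt1 on the Y-linked mean stayed called in 6 other settings and 16 fits without 1 array, all chosen after seeing the data.

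Gene counts moved by over 1.5 times in several settings. The averaged Rassf1a count of 293 was 444 with the stricter filter, 800 with array weights and 80 without the Y-high arrays. The Rassf1a-/- count of 92 was 190 with only the compared genotypes and 898 with array weights. The double-genotype count against Sav1+/- of 110 was 50 with median centring and 1 with only the compared genotypes.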
